A study of Mus musculus with 16 samples.

Results

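The enzymes that take glucose to pyruvate and pyruvate through the citrate cycle were followed in growing mouse oocytes. A named list of 36 genes was looked up by symbol in the expression table, and all 36 were found among its 25965 genes. The list holds 16 genes of glycolysis (Hk1 to Pkm), 2 lactate dehydrogenase subunits, 4 subunits of the pyruvate dehydrogenase complex and 14 genes of the citrate cycle list. The rule uses gene symbols alone. Oocytes were from wild-type C57BL/6 mice (the C57BL/6Babr substrain in the study's methods) and were sorted by diameter: 10–30 μm oocytes at postnatal days 5–7, 40–45 μm at days 7–12, 50–55 μm at days 9–14 and 60–65 μm at days 13–16, and fully grown germinal vesicle (GV) oocytes at day 20. RNA sequencing (RNA-seq) was done on 2 libraries (A and B) of each size class and on 1 GV library. Bisulphite sequencing gave 2 reduced representation (RRBS) libraries of each class from 40–45 μm upward and 1 whole-genome library made by post-bisulphite adapter tagging (PBAT) for 60–65 μm oocytes. Each library was a pool of oocytes, age differed with size, and nothing states that A and B came from separate animals, so p-values measure the spread between these libraries, which may be technical.

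Glycolysis splits glucose into pyruvate in the cytosol. Pyruvate is then either reduced to lactate by lactate dehydrogenase or passed into mitochondria, where pyruvate dehydrogenase turns it into acetyl-CoA for the citrate cycle. Growing oocytes are known to take up and oxidise pyruvate and to use little glucose, while the granulosa cells around them carry out glycolysis and supply them with pyruvate.

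Expression was given as RPKM, reads normalised to the exon length of a gene and to the total of mapped reads, so levels can be set side by side between genes. RPKM is relative to all RNA in the pool, and fewer cells with a transcript and less of it per cell cannot be told apart. The steps between low values correspond to totals of 99370000 to 198300000 reads per library, and 1 read on 1 kb of exon was worth 0.00504 to 0.0101 RPKM. The 10 oocyte markers (the zona pellucida genes, Gdf9, Bmp15 and others) summed to 2617–3724 RPKM in the 9 libraries. The 12 granulosa cell markers summed to 2.16–2.58 RPKM at 10–30 μm, 3.56–3.58 at 40–45 μm, 5.74–6.11 at 50–55 μm, 7.35–8.04 at 60–65 μm and 9.78 in GV, and 4 of the 12 reached 0.5 RPKM in any library. Most of that sum was Nr5a2 (1.29–5.56 RPKM), and Cyp19a1 went from 0.159–0.161 RPKM at 10–30 μm to 1.04–1.255 at 60–65 μm. Fshr, Inha, Kitl and Amh were also higher at 60–65 μm, each at or below 0.542 RPKM, and Foxl2 was at 0.0145–0.0642 RPKM in all libraries. The 9 stroma and theca markers went in sum from 2.87–4.02 RPKM at 10–30 μm to 1.10–1.17 at 60–65 μm, and the 6 listed blood and endothelium markers went from 0.741–0.807 to 4.58–5.08 RPKM, with Pecam1 at 0.531–0.567 and 4.19–4.705 RPKM. No marker was at 0 in all 9 libraries. The part of these sums in the changes reported here was not tested.

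The 36 enzymes covered a wide range of levels. Averaged over the 8 libraries of growing oocytes, 2 members were over 50 RPKM (Ldhb and Pkm), 17 lay at 5–50 RPKM, 9 at 0.5–5 RPKM and 8 under 0.5 RPKM. Together the members took 0.811–1.19% of the summed RPKM of all genes, and Ldhb alone was 65.5–74.1% of the members' sum.

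**Figure D1:**
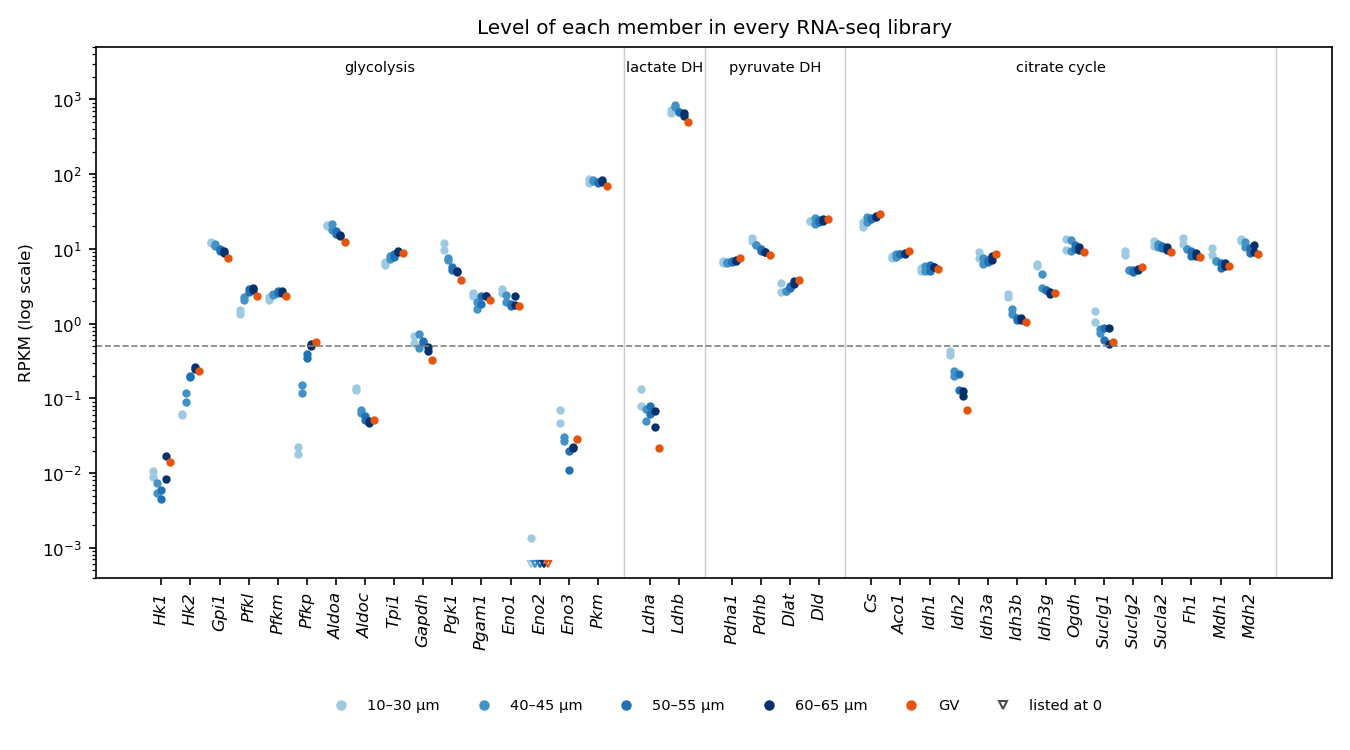
RPKM (log scale) of each of the 36 members in every RNA-seq library, in pathway order; points are libraries, colours are size classes, open triangles are values listed at 0, and the dashed line is 0.5 RPKM. Ldhb lay between 492 and 832 RPKM and Pkm between 69.7 and 84.7 RPKM, while Hk1, Eno2, Eno3, Aldoc and Ldha stayed at or below 0.136 RPKM.

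Lactate dehydrogenase was represented almost entirely by Ldhb, which encodes the heart-type (H) subunit. Ldhb (chr6:142490249-142507957, minus strand, GRCm38) ranked 7th of all genes by mean level. It was at 654 and 715.5 RPKM in the 10–30 μm libraries A and B, at 785 and 832 RPKM at 40–45 μm, at 672 and 674.5 RPKM at 50–55 μm, at 656 and 589.6 RPKM at 60–65 μm, and at 492 RPKM in GV. Both 40–45 μm libraries were above every other library, the GV library was below every other, and the 10–30 and 60–65 μm libraries overlapped. None of these steps passed the test (limma, Benjamini-Hochberg adjusted p = 0.0744 from 10–30 to 40–45 μm, 0.128 from 40–45 to 50–55 μm and 0.332 from 10–30 to 60–65 μm).

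Ldha (chr7:46841475-46855627, plus strand), which encodes the muscle-type (M) subunit common in glycolytic tissues, was at 0.132 and 0.0780 RPKM at 10–30 μm, 0.0714 and 0.0491 at 40–45 μm, 0.0799 and 0.0608 at 50–55 μm, 0.0415 and 0.0667 at 60–65 μm and 0.0220 in GV. These values correspond to 13–39 reads per library when the exon length that makes the reads whole (2982 bases) is used in place of the annotated 3310 bases. Ldhb was thus 99.98–99.99% of the summed RPKM of both subunits in the mean of every size class. Ldhc, the subunit best known from the testis, was at 6.45 and 5.91 RPKM at 10–30 μm and 13.2 in both 60–65 μm libraries, 2.13-fold higher on the fitted scale (log2 change 1.09 ± 0.12 SE, limma adjusted p = 0.000123).

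The 250 bases before the RefSeq start of Ldhb and Ldha are shown because these subunits of 1 enzyme differed so widely in level. They are read 5′ to 3′ on the gene's strand, with CpG dinucleotides, the sites of methylation, in capitals (RefSeq, GRCm38.p6; Ldhb chr6:142507958-142508207, minus; Ldha chr7:46845554-46845803, plus).
Ldhb: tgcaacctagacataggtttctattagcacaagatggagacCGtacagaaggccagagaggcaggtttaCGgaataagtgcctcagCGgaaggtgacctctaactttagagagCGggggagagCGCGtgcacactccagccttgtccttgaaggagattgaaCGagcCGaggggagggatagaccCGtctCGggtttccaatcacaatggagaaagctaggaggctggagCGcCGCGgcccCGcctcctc
Ldha: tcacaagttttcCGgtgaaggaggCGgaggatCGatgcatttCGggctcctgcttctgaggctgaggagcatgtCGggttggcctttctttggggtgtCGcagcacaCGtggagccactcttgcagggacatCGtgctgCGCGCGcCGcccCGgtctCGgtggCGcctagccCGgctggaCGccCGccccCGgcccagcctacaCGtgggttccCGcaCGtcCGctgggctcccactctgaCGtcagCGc

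The Ldha sequence held 25 CpGs and the Ldhb sequence 14, against a median of 14 (range 0–25) in the 35 members with a RefSeq promoter (Idh3a was not matched) and of 6 in all 32851 promoters. Motifs were searched on both strands. The letters ACGTG lie inside the E-box CACGTG and belong to hypoxia response elements. They were counted 5 times before Ldha, where each CACGTG holds them on both strands and so counts 2 times. CACGTG itself occurred 2 times and the GC box GGGCGG 2 times, while none of the 3 motifs occurred before Ldhb. ACGTG was found in 9 of 35 members and 16.6% of all promoters, CACGTG in 2 members and 6.02%, GGGCGG in 20 members and 32.7%, and TATAAA in 1 member and 12.4%. Neither sequence was highly methylated: PBAT of 60–65 μm oocytes gave 5.56% over 6 cytosine positions (36 calls) before Ldhb and 2.70% over 46 positions (341 calls) before Ldha. RRBS gave 0.192–1.82% before Ldha in the 4 libraries with at least 5 positions. The start listed for Ldha in the expression table lies 4329 bases from this RefSeq start.

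Glycolysis begins with hexokinase, which phosphorylates glucose, and both listed hexokinases were low. Hk2 was at 0.0624 and 0.0601 RPKM at 10–30 μm, 0.118 and 0.0886 at 40–45 μm, 0.1995 and 0.193 at 50–55 μm, 0.261 and 0.250 at 60–65 μm and 0.231 in GV. Every later size class lay above the one before it without overlap, from 37–57 reads at 10–30 μm to 164–270 at 60–65 μm. The means of 60–65 and 10–30 μm differed 4.18 times. Hk2 did not reach the 0.5 RPKM filter. When the 18865 genes above 0 RPKM in at least 2 of the 8 libraries were fitted, its change was 2.20-fold on the log2(RPKM + 0.1) scale (log2 1.14 ± 0.11 SE, limma adjusted p = 0.000241). Hk1, the hexokinase of most tissues, was at 0.00455–0.0167 RPKM (6–24 reads), so that Hk2 made up 86.3% of the pair at 10–30 μm and 95.4% at 60–65 μm.

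Phosphofructokinase catalyses the committed step of glycolysis and has 3 genes, named for liver (Pfkl), muscle (Pfkm) and platelet (Pfkp). All 3 rose from 10–30 to 60–65 μm, and Pfkp changed most. Pfkp (chr13:6579768-6648777, minus strand) was at 0.0225 and 0.0181 RPKM at 10–30 μm, 0.152 and 0.117 at 40–45 μm, 0.397 and 0.342 at 50–55 μm, 0.540 and 0.500 at 60–65 μm and 0.559 in GV. Each size class lay above the one before it without overlap, and the means of 60–65 and 10–30 μm differed 25.6 times. On the log2(RPKM + 0.1) scale used for the test, which understates the change of low genes, the change was 2.35 ± 0.15 SE (limma adjusted p = 9.3e-06). The size of that change depends on the added constant, being 0.57 with 1 RPKM and 4.13 with 0.01 RPKM. Pfkp passed the filter of 0.5 RPKM in 2 libraries only through the 60–65 μm libraries, where it is high, so that passing the filter already required it to differ.

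Pfkl was at 1.35 and 1.54 RPKM at 10–30 μm, 2.25 and 2.09 at 40–45 μm, 2.64 and 2.93 at 50–55 μm, 2.84 and 2.95 at 60–65 μm and 2.36 in GV. It rose 1.96-fold to 60–65 μm (log2 0.97 ± 0.11 SE, adjusted p = 1e-04), and its step to 40–45 μm passed the test too (adjusted p = 0.00546). Pfkm was at 2.04 and 2.24 RPKM at 10–30 μm, 2.41 and 2.505 at 40–45 μm, 2.545 and 2.71 at 50–55 μm, 2.59 and 2.73 at 60–65 μm and 2.36 in GV. The rise of Pfkm was 1.24-fold (log2 0.31 ± 0.09 SE, adjusted p = 0.0177). It was lost without 10–30 μm A or 60–65 μm B.

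The make-up of the family shifted, given here without a test. Pfkm was 59.4% ± 0.53 (SD, n = 2) of the summed phosphofructokinase RPKM at 10–30 μm and 43.8% ± 0.58 at 60–65 μm. Pfkl went from 40.1% ± 0.66 to 47.7% ± 0.09 and Pfkp from 0.568% ± 0.13 to 8.56% ± 0.67. The libraries of both classes did not overlap for any of the 3 genes, and in GV the shares were 44.7% Pfkm, 44.7% Pfkl and 10.6% Pfkp. With 1 RPKM added to each gene, the Pfkm share went from 47.5% to 40.3%. Of the other families as deposited, Hk2 moved by 9.05 points, and in the beta subunits of succinyl-CoA ligase the GTP-specific Suclg2 went from 42.8% ± 0.17 to 34.2% ± 0.72 against the ATP-specific Sucla2.

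**Figure D2:**
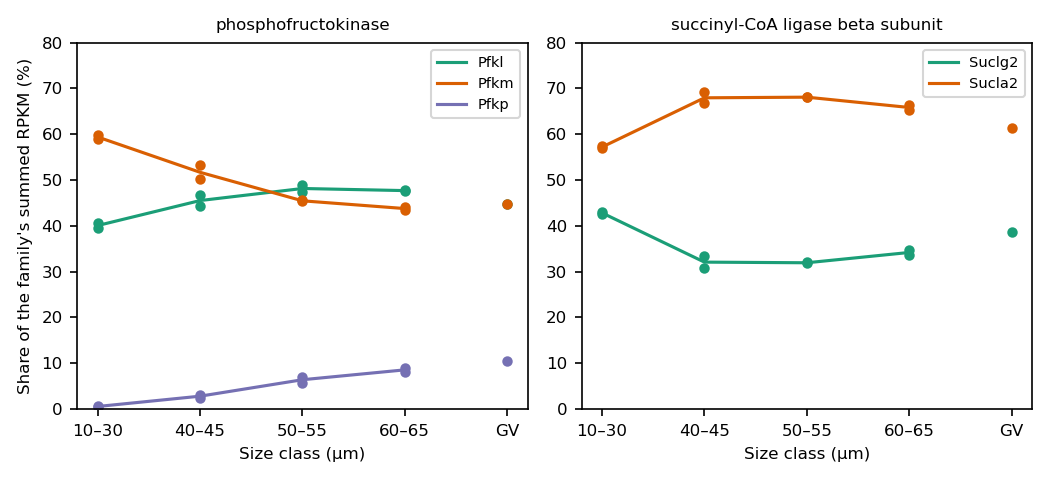
Share (%) of each gene in the summed RPKM of its family, for phosphofructokinase (left) and the beta subunit of succinyl-CoA ligase (right), by size class; points are libraries and lines join the means of growing classes. Pfkm fell from 59.4% to 43.8% while Pfkp went from 0.568% to 8.56%, and Suclg2 went from 42.8% to 34.2%.

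The 250 bases before the start of Pfkp are shown because Pfkp had the largest change of the members and, as given further on, the highest methylation over the whole gene body. CpGs are in capitals (RefSeq, GRCm38.p6, chr13:6648772-6649021, minus strand).
Pfkp: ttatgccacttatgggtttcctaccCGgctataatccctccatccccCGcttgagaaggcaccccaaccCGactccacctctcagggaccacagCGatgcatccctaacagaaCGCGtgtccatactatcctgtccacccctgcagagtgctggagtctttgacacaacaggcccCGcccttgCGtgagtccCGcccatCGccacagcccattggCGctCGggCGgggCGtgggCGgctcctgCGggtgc

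This sequence held 16 CpGs and 4 copies of GGGCGG, none of ACGTG and none of TATAAA. PBAT gave 1.25% methylation over 16 positions (140 calls).

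The middle steps of glycolysis moved in both directions. Aldoa, the aldolase that splits the bisphosphorylated sugar, was at 20.2 and 20.9 RPKM at 10–30 μm, 17.6 and 21.1 at 40–45 μm, 15.9 and 17.3 at 50–55 μm, 15 and 15.3 at 60–65 μm and 12.4 in GV. It fell 1.34-fold (log2 -0.43 ± 0.10 SE, adjusted p = 0.00654), a call lost without 60–65 μm A, and Aldoc was at 0.0466–0.136 RPKM. Gpi1, which turns glucose phosphate into fructose phosphate, fell from a mean of 12.2 to 8.98 RPKM (log2 -0.43 ± 0.09 SE, adjusted p = 0.00284). Tpi1, which interconverts the triose phosphates, rose from a mean of 6.34 to 9.22 RPKM, with all 10–30 μm values (5.98 and 6.69) below both 60–65 μm values (9.13 and 9.31; log2 0.55 ± 0.12 SE, adjusted p = 0.00383).

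Pgk1, which makes ATP from bisphosphoglycerate, had the largest fall on the log2(RPKM + 0.1) scale among the tested glycolysis members. It was at 12.1 and 9.77 RPKM at 10–30 μm, 7.03 and 7.44 at 40–45 μm, 5.75 and 5.22 at 50–55 μm, 5.07 and 4.92 at 60–65 μm and 3.85 in GV. Each size class lay below the one before it without overlap, and the change from 10–30 to 60–65 μm was 2.14-fold (log2 -1.10 ± 0.13 SE, adjusted p = 0.000168). The coding sequence of Pgk1 occurs with 100% identity in Pgk1-rs7 (mean 1.16 RPKM) and Gm5537 (mean 0.764 RPKM), which were chosen for mention after their values were seen. Both fell as well (log2 -0.90, adjusted p = 0.000415, and log2 -0.76, adjusted p = 0.00576), and the Pgk1 row held 75.3–80.2% of the 3 rows in every library. Reads from these genes cannot be told apart where the sequences are identical.

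Gapdh, the dehydrogenase of glyceraldehyde phosphate, was listed at only 0.426–0.727 RPKM in growing oocytes and 0.327 RPKM in GV. It did not pass the test (log2 -0.35 ± 0.18 SE, adjusted p = 0.111). Its coding sequence had 75 copies elsewhere in GRCm38 at 95% identity or more over at least 50% of its length, more than any other member. Outside chromosome 18, 21 listed genes made largely of such a copy summed to 34.2–56.7 RPKM in growing oocytes and 23.3 in GV. With the Gapdh row these made 22 rows, and the Gapdh row held 1.19–1.57% of their sum. Among the copy rows, also chosen after their values were seen, Gm10566 had a mean of 22.4 RPKM, Gm12033 10.8 RPKM (99.9% identity) and Gm10327 8.29 RPKM. None of these 3 was called from 10–30 to 60–65 μm (adjusted p = 0.795, 0.514 and 0.848). The alignments kept 1 position per read, so which gene these reads came from cannot be told apart, and the Gapdh level is uncertain. Of the other members, 26 had no such copy, and Ldhb held 97.1–98.0% of its sum with its copy row Gm5514.

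Of the mutase and the enolases, Eno1 alone was called among the genes tested. Pgam1, the mutase before enolase, was at 1.55–2.55 RPKM and was not called (adjusted p = 0.718). Among the enolases, Eno1 was at 1.70–2.88 RPKM and was called lower (log2 -0.38 ± 0.14 SE, adjusted p = 0.0422), a call lost in 8 of the alternative settings. Without 60–65 μm B its change was -0.20. The Eno1 coding sequence had 3 copies elsewhere, 1 of them inside Gm5506 on chromosome 18 (99.39% identity, mean 0.4565 RPKM). Eno2, the neuronal enolase, had 1 read in a single 10–30 μm library, and the muscle enolase Eno3 was at 0.0112–0.0694 RPKM (3–13 reads).

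Pkm, the pyruvate kinase that ends the pathway, was the second highest member. It was at 84.7 and 75.4 RPKM at 10–30 μm, 84.2 and 79.5 at 40–45 μm, 79.2 and 75.2 at 50–55 μm, 82.0 and 77.5 at 60–65 μm and 69.7 in GV. The 10–30 and 60–65 μm libraries overlapped, both 40–45 μm libraries lay just above both 50–55 μm libraries, the GV library was the lowest, and the fitted change from 10–30 to 60–65 μm was 0.01 ± 0.12 SE (log2, adjusted p = 0.962). Pkm made up 56.0–62.2% of the summed RPKM of the 16 glycolysis members in the 9 libraries.

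In the pyruvate dehydrogenase complex 1 of the 4 subunits, Pdhb, was called from 10–30 to 60–65 μm, where 63.4% of all tested genes were. Dld, the dihydrolipoamide dehydrogenase it shares with other complexes, was at 23.2 and 23.6 RPKM at 10–30 μm, 25.7 and 21.5 at 40–45 μm, 24.3 and 23.0 at 50–55 μm, 23.8 and 24.9 at 60–65 μm and 25.2 in GV. Dld was not called (adjusted p = 0.645), nor were the catalytic subunit Pdha1 (6.45–6.99 RPKM, adjusted p = 0.53) and the acetyltransferase Dlat (2.66–3.66 RPKM, adjusted p = 0.153). Pdhb, the beta partner of Pdha1, fell from 13.9 and 12.9 RPKM to 9.08 and 8.975 RPKM (log2 -0.55 ± 0.10 SE, adjusted p = 0.00149).

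Of the 13 tested citrate cycle members 7 were called lower, where 31.4% of all tested genes were. Both this count and that share were smaller without 60–65 μm B. Citrate synthase, Cs, which joins acetyl-CoA to oxaloacetate, was the only tested member of the cycle called higher. Cs was at 19.5 and 22.5 RPKM at 10–30 μm, 22.6 and 26.8 at 40–45 μm, 25 and 25.8 at 50–55 μm, 27.7 and 26.2 at 60–65 μm and 29.5 in GV. Both 60–65 μm libraries were above both 10–30 μm libraries and GV was above all (log2 0.37 ± 0.10 SE, adjusted p = 0.0123), but the call was lost without 10–30 μm A or 60–65 μm A.

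The NAD-dependent isocitrate dehydrogenase is built of Idh3a, Idh3b and Idh3g, and its subunits did not move together. Idh3g (chrX:73778963-73786897, minus strand) was at 6.32 and 5.93 RPKM at 10–30 μm, 3.02 and 4.57 at 40–45 μm, 2.79 and 2.84 at 50–55 μm, 2.45 and 2.63 at 60–65 μm and 2.58 in GV. All later libraries were below both 10–30 μm libraries, a fall of 2.34-fold to 60–65 μm (log2 -1.23 ± 0.16 SE, adjusted p = 0.000289). Idh3b fell from a mean of 2.39 to 1.15 RPKM (log2 -0.99 ± 0.12 SE, adjusted p = 0.000149). The catalytic subunit Idh3a was at 7.52 and 9.17 RPKM and at 7.97 and 7.16 RPKM in these classes, which overlapped (log2 -0.13 ± 0.12 SE, adjusted p = 0.364). The difference between the subunits' changes was not tested.

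Among the NADP-dependent isocitrate dehydrogenases, the cytosolic Idh1 was at 4.98–6.11 RPKM and was not called (adjusted p = 0.501). The mitochondrial Idh2 was at 0.428 and 0.377 RPKM at 10–30 μm, 0.232 and 0.196 at 40–45 μm, 0.214 and 0.130 at 50–55 μm, 0.125 and 0.107 at 60–65 μm and 0.0702 in GV. It was under the filter, and in the fit of genes above 0 RPKM it fell 2.305-fold on the log2(RPKM + 0.1) scale, 3.47-fold as a ratio of means (log2 -1.21 ± 0.18 SE, adjusted p = 0.00144), from 110–155 reads to 34–50. Its share of the pair went from 7.08% to 1.997%.

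The members of the later steps of the cycle were lower at 60–65 μm or not called. Of the succinyl-CoA ligase subunits, Suclg2 fell from a mean of 8.84 to 5.22 RPKM (log2 -0.74 ± 0.11 SE, adjusted p = 0.000628), with its fall already called at 40–45 μm (log2 -0.68, adjusted p = 0.00501). The alpha subunit Suclg1 was at 1.47 and 1.05 RPKM at 10–30 μm and at 0.861 and 0.526 RPKM at 60–65 μm (log2 -0.78 ± 0.25 SE, adjusted p = 0.0253), which was lost without 10–30 μm A and became -0.48, no longer called, without 60–65 μm B. Fumarase, Fh1, fell from a mean of 12.7 to 8.465 RPKM (log2 -0.57 ± 0.14 SE, adjusted p = 0.00631).

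Malate dehydrogenase fell in both compartments. The cytosolic Mdh1 went from 9.225 to 6.15 RPKM (log2 -0.56 ± 0.14 SE, adjusted p = 0.00879) and the mitochondrial Mdh2 from 13.1 to 10.0 RPKM (log2 -0.38 ± 0.13 SE, adjusted p = 0.0259). Both calls were lost without 60–65 μm B, where Mdh2 changed by -0.235, and that of Mdh2 also without either 10–30 μm library. Sucla2 (adjusted p = 0.153), the oxoglutarate dehydrogenase Ogdh (9.35–13.6 RPKM, adjusted p = 0.393) and the cytosolic aconitase Aco1 (7.45–8.78 RPKM, adjusted p = 0.0979) were not called.

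In all, 29 of the 36 members passed the filter on low values (0.5 RPKM in at least 2 of 8 libraries) and were tested from 10–30 to 60–65 μm. Of these 29, 5 were called higher, 12 lower and 12 were not called, where 63.4% of all 10518 tested genes were called, 32.0% higher and 31.4% lower. The 5 include Pfkp, which the filter admitted only through the libraries where it is high, and 4 of the 28 others were called higher. The median log2 change was -0.18 over the 29 members and 0.008 over all tested genes, and the median size of the change was 0.38 against 0.475. Fewer members were called higher without 10–30 μm A or either 60–65 μm library, and fewer lower without 60–65 μm B. The matching shares of all tested genes called were smaller in these fits too. By role, 4 of 11 tested glycolysis members rose (Pfkp among them) and 4 fell, none of the 4 pyruvate dehydrogenase members rose and 1 fell, and 1 of 13 citrate cycle members rose and 7 fell. The 7 members under the filter were Hk1, Hk2, Aldoc, Eno2, Eno3, Ldha and Idh2. In the fit of genes above 0 RPKM, which Eno2 did not enter, Aldoc (log2 -0.65, adjusted p = 0.000361) and Eno3 (log2 -0.365, adjusted p = 0.00868) were also called lower, and Ldha (adjusted p = 0.079) and Hk1 (adjusted p = 0.559) were not called.

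**Figure D3:**
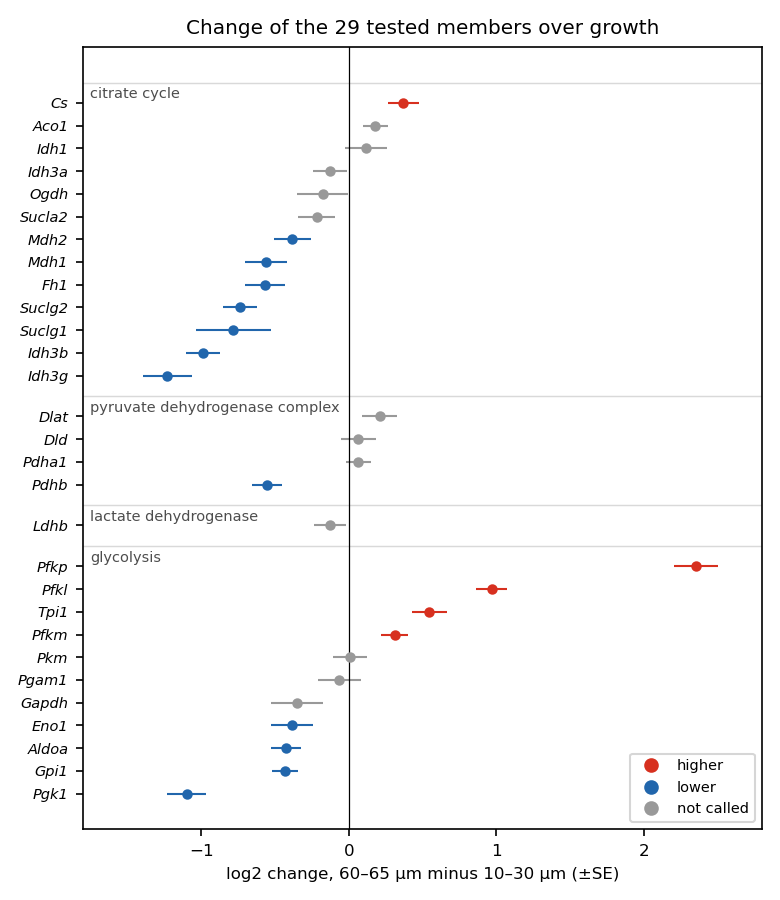
Change on the log2(RPKM + 0.1) scale from 10–30 to 60–65 μm oocytes (horizontal axis) for the 29 tested members, by role; points are fitted changes with bars of ±1 SE, red for called higher, blue for called lower and grey for not called. Pfkp stands apart at 2.35, and the lowest are Idh3g at -1.23 and Pgk1 at -1.10.

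By step, the members' calls lay mostly in early growth, as did those of all genes. From 10–30 to 40–45 μm, where 23.0% of tested genes were called, 2 members were called higher (Pfkl and Pfkp, against 13.2% of all tested genes) and 4 lower (Pgk1, Idh3b, Idh3g and Suclg2, against 9.80%). With the letters A and B fitted as a block, 5 members were higher and 6 lower, against 17.7% and 13.9% of all tested genes. The counts without this block changed when single libraries were left out, and so did the shares of all tested genes called. Suclg2 kept its call without any single library, and Pfkp was under the filter without either 60–65 μm library. From 40–45 to 50–55 μm, Pfkp alone was called (log2 0.99 ± 0.15 SE, adjusted p = 0.0149), against 9.10% of genes called, 5.78% higher and 3.32% lower. Pfkp was in both of these tests only because its 60–65 μm libraries reached the filter, so its calls are a description. The call was lost without 40–45 μm B or 50–55 μm A. From 50–55 to 60–65 μm limma called 0 of the 10518 genes (0%), and at an unadjusted p under 0.05 it had 722 higher and 721 lower, with 1 member higher and 0 lower.

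The GV library had no replicate, so its values are given without a test. None of the 29 members was past 2-fold of the mean of the 60–65 μm libraries, where 0.647% of genes were (0.390% higher and 0.257% lower). The GV value was below both 60–65 μm libraries in 10 of 11 glycolysis members, Pfkp being above both, and in Ldhb. In the pyruvate dehydrogenase complex Pdhb was below both and Pdha1, Dlat and Dld were above both. In the citrate cycle 7 members were below both, Idh3g and Suclg1 lay between and Cs, Aco1, Idh3a and Suclg2 were above both. Over the 29 members 19 were below and 8 above, where 46.2% of all tested genes were below and 35.1% above.

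The levels were also summed over the genes of each side. The 16 glycolysis members summed to a mean of 139.7 RPKM at 10–30 μm, 136.6 at 40–45 μm, 127.7 at 50–55 μm and 129.4 at 60–65 μm, and to 112 RPKM in GV. The 18 members of pyruvate use (pyruvate dehydrogenase and citrate cycle) summed to 166, 151, 145 and 147 RPKM in the same order and to 147.5 in GV. The ratio of glycolysis to pyruvate use was 0.840 ± 0.050 (SD, n = 2) at 10–30 μm, 0.905 ± 0.028 at 40–45 μm, 0.881 ± 0.0095 at 50–55 μm, 0.879 ± 0.0047 at 60–65 μm and 0.759 in GV. By library the ratio ran over 0.8048–0.8753 at 10–30 μm, then 0.8846–0.9248 (40–45 μm), 0.8745–0.888 (50–55 μm) and 0.8758–0.8825 (60–65 μm). The 50–55 μm class overlapped with each of the other classes, the 10–30 μm libraries lay below both 60–65 μm libraries by as little as 0.8753 against 0.8758, and the GV value was below all growing libraries.

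The ratio depended on how reads of near-identical copies were treated. Copy rows of glycolysis members were then added, 25 in all, with those on chromosome 18 left out. Most of the added RPKM was from the Gapdh copies, and the ratio became 1.10, 1.22, 1.19 and 1.15 in the 4 size classes and 0.927 in GV. No listed copy gene belonged to pyruvate use. It was 0.4105–0.4335 in the 4 classes without the highest member of each side (Pkm and Cs), and the median log2(RPKM + 0.1) of glycolysis was below that of pyruvate use (difference -2.18 to -1.69). The ratio was 0.970–1.05 without the cytosolic Aco1, Idh1 and Mdh1. The side of 1 on which growing oocytes fell thus depended on which rows were counted.

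**Figure D4:**
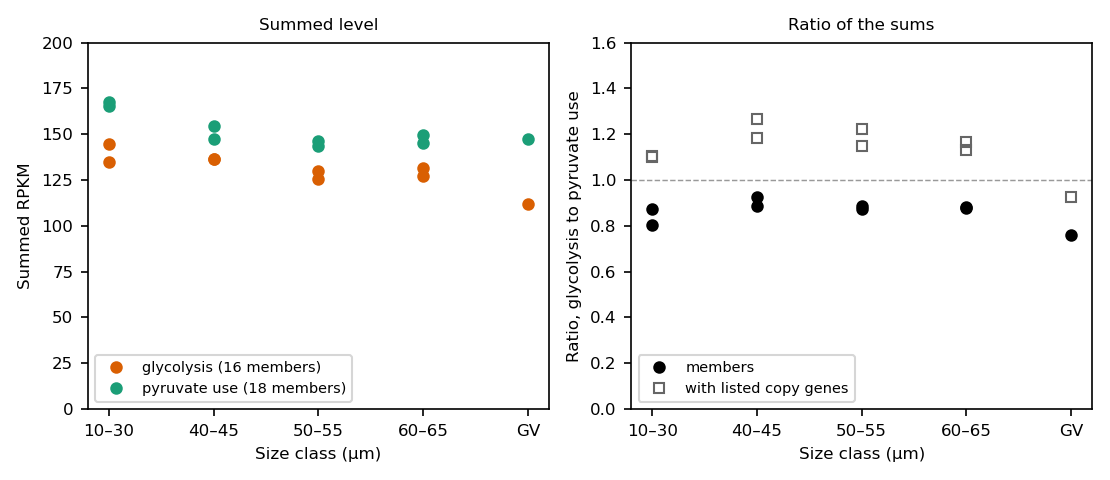
Left, summed RPKM of the 16 glycolysis members and the 18 members of pyruvate use in each library; right, their ratio, from the members alone (filled) and with listed copy genes added (open squares), with a dashed line at 1. The members alone gave 0.805 to 0.925 in growing oocytes and 0.759 in GV, and the copies moved the growing classes above 1.

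Genes of the neighbouring pathways were counted by list over 10–30 to 60–65 μm, where 32.0% of all tested genes were higher and 31.4% lower. Those given with a log2 change of 1 or more in size had adjusted p at or below 0.000948. Of the genes counted, Slc2a10, Slc16a6, Tktl2 and Slc25a13 (higher) and Pfkfb2 (lower) passed the filter only through size classes where they are high, so their calls are a description. Of 9 tested genes for glucose and monocarboxylate transport 4 were higher and 4 lower. The glucose transporter Slc2a1 rose from 3.66 and 4.72 to 7.12 and 6.62 RPKM (adjusted p = 0.000629), and Slc2a10 rose (log2 1.14), while Slc2a3 stayed at or below 0.0667 RPKM. The lactate and pyruvate transporter Slc16a1 was higher by 0.33 (log2, adjusted p = 0.0481), its chaperone Bsg fell (log2 -1.06), and of the mitochondrial pyruvate carrier Mpc2 fell (log2 -0.88, adjusted p = 0.00186) and Mpc1 was not called (adjusted p = 0.342). Of 8 tested regulators and partners of pyruvate dehydrogenase 3 rose and 3 fell. The inhibitory kinases Pdk1 (log2 -0.98, adjusted p = 0.000109) and Pdk3 (log2 -0.98, adjusted p = 9.87e-05) fell, the phosphatase Pdp1 rose (log2 0.42, adjusted p = 0.00531), the component Pdhx rose (log2 1.19), and of the lipoate genes Lipt1 rose (log2 1.08) and Lias fell (log2 -1.08).

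Of the 9 tested genes listed beside the citrate cycle 3 rose, of which Dlst acts in the cycle with Ogdh (log2 0.45, adjusted p = 0.0104). The others were Acly (log2 0.37, adjusted p = 0.00864) and Dhtkd1 (log2 1.09), which are not enzymes of the cycle. There were 2 that fell, the succinate dehydrogenase subunits Sdhb (log2 -0.76, adjusted p = 0.00202) and Sdhc (log2 -0.52, adjusted p = 0.00348). Of 3 tested genes on a list of tissue-restricted isozymes Ldhc rose, as did Ldhd, a D-lactate dehydrogenase that is no isozyme of Ldhc. The third, the bisphosphoglycerate mutase Bpgm, was at 79.8–111.7 RPKM in growing oocytes and was not called (adjusted p = 0.0761). On this list 12 more in the table were under the filter, among them Hk3 and Hkdc1. The enzymes that make or break down fructose 2,6-bisphosphate, an activator of phosphofructokinase, had 1 higher and 3 lower of 4 tested, the largest being Pfkfb3 (log2 -1.04).

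The pentose phosphate pathway, which branches off at glucose phosphate, had 1 higher and 5 lower of 9 tested. Tktl2 rose (log2 2.01), and H6pd (log2 -1.14), Pgls (log2 -1.09) and Taldo1 (log2 -1.08) fell. Of 8 tested genes of gluconeogenesis and pyruvate refilling 3 rose and 2 fell, and of 7 tested genes of the shuttles that carry NADH into mitochondria 4 rose and 1 fell. Among the tested shuttle genes the largest changes were Slc25a13, the aspartate carrier (log2 1.57), and Got1, the cytosolic aspartate aminotransferase (log2 1.28). Gpd2 was under the filter, and in the fit of genes above 0 RPKM it rose more (log2 1.78, limma adjusted p = 6.99e-05).

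DNA methylation was a readout that played no part in choosing the members. In oocytes it is laid down during growth, mostly across transcribed gene bodies. In the PBAT library of 60–65 μm oocytes (98148116 calls, a median of 2 calls per cytosine position) 35 members had a measured gene body, Tpi1 being under 4 kb. The mean over positions with at least 5 reads had a median of 26.9% over these members. Among genes of at least 0.5 RPKM, 16 of 27 members reached 25%, beside 65.3% of all such genes. Over all 18029 measured genes the median was 18.7%. The 27 members with a mean level of at least 0.5 RPKM had a median of 29.5%, beside 32.4% for the 8704 such genes, and the 8 lower members had 6.73%, beside 8.68% for the 9325 genes under that level.

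Over the whole listed gene, the highest value was that of Pfkp, whose level was 0.261 RPKM over the 8 growing libraries and 0.520 RPKM in the 60–65 μm class in which methylation was measured. Pfkp was at 58.7% over 350 positions and 2788 calls (59.9% of calls, 95% Wilson interval 58.1–61.7%, which covers counting error only), above 96.5% of measured genes. The other phosphofructokinases were next, Pfkm at 52.7% and Pfkl at 51.4%, followed by Gpi1 at 49.5%. Ldhb, the highest in RNA, was at 13.2% over 72 positions and 440 calls (13.9% of calls, interval 10.95–17.4%), above 40.8% of measured genes. Low values were found both in genes with little RNA, Ldha at 4.495% over 172 positions, Hk1 at 7.26%, Hk2 at 6.01% and Eno2 at 3.15%, and in the well-expressed Aldoa at 4.19% over 106 positions, in a gene of 5518 bases. Without the first 2 kb of each gene the median of the members was 51.6%, that of all genes 29.7% and that of expressed genes 51.1%, and Ldhb was at 17.3%. The order of the members then changed, with Pdhb at 71.7%, Pfkl at 69.7%, Idh3g at 66.8% and Pfkp at 66.65%, while Pfkm was at 64.1% and Gpi1 at 55.8%.

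**Figure D5:**
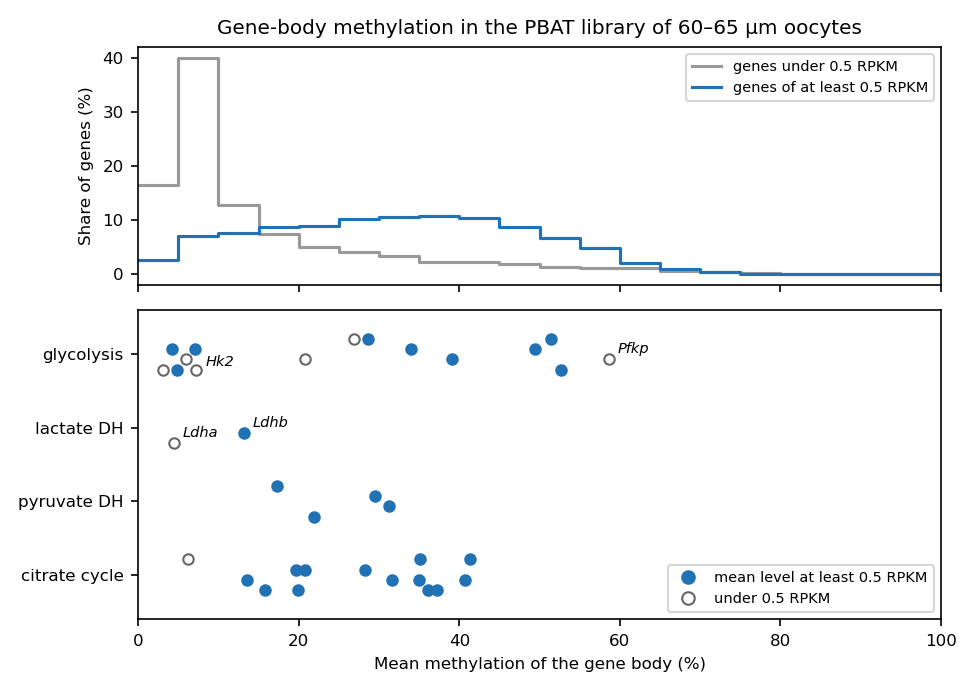
Mean methylation of the gene body (%) in the PBAT library of 60–65 μm oocytes: above, the share of all measured genes in each 5-point bin for genes under and at or above 0.5 RPKM; below, each of the 35 measured members by role, filled where its mean level was at least 0.5 RPKM. Pfkp lies at 58.7%, drawn open for its mean of 0.261 RPKM over 8 libraries although it was at 0.520 RPKM in the 60–65 μm class, and Ldhb lies at 13.2%.

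Gene starts stayed low in methylation. Within 500 bp of the listed start 25–29 members were measured in the RRBS libraries, with medians of 0.307–0.761% and a highest value of 8.34% (Tpi1 in 60–65 μm B). PBAT gave a median of 2.995% over 33 members and a highest value of 16.4% (Gapdh, over 5 positions and 32 calls). The highest member was Aldoc with at least 10 reads per position (5.64%) or within a wider window around the start (8.69%). With at least 5 reads per position no member reached 25% in any library, where 0.0861–1.24% of all measured gene starts did in RRBS and 4.92% in PBAT. With positions of at least 1 read counted, PBAT gave 1 member over 25%, Aldoa at 42.6%. For Ldha, Gapdh and Sucla2 the listed start lies 4329, 694 and 27467 bases from the RefSeq start. In the 250 bases before the RefSeq starts the PBAT median was 3.40% over 26 members, with 6.71% the highest.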

How the data were processed

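RNA-seq, RRBS and PBAT data of pooled mouse oocytes were analysed. Per the submitters' processing notes and the study's methods, strand-specific RNA reads were trimmed with Trim Galore 0.2.8 and aligned to GRCm38 with TopHat2 2.0.9, keeping 1 alignment per read. The authors deposited RPKM per gene and library. The study's methods name Cufflinks and SeqMonk for RNA-seq data, and the tool that made this table is not given in the sources used here. RRBS and PBAT reads were trimmed with Trim Galore 0.3.5 and aligned with Bismark 0.14.0 and 0.10.0. For each cytosine position the authors deposited the percent methylated and the counts of methylated and unmethylated calls, which came to 29942043 to 57215134 calls per RRBS library and 98148116 in PBAT.

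RPKM was scaled by a trimmed mean of log ratios (30% of genes by ratio and 5% by level left out at each end; factors 0.954–1.05). With limma 3.58.1 in R 4.3.3, genes that reached 0.5 RPKM in at least 2 of 8 growing libraries were fitted on log2(RPKM + 0.1) with a variance trend and a mean for each size class, and p-values were adjusted by Benjamini-Hochberg over all of them (threshold 0.05). RPKM is not a count, so no count test was run. On simulated data for 10–30 to 60–65 μm (10084 genes tested) 176 of 198 changed and 7 unchanged genes were called, and 0 genes when none was changed. Isozyme shares, sums and ratios used RPKM as deposited. Methylation was averaged over positions with at least 5 reads, in gene bodies of at least 4 kb with 10 such positions and within 500 bp of listed starts with 5. Copies of coding sequences were sought in GRCm38 with BLAST+ 2.17.0 (95% identity, 50% of the coding sequence), and promoter sequences were from RefSeq. Listed copy genes on chromosome 18 were left out of the copy sums. Python 3.11.15, pandas 2.3.3, numpy 2.4.6 and matplotlib 3.10.9 were used.

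Values of every library were written out for the 5 members of highest mean level, members called with a log2 change of at least 1 and families whose shares moved by at least 10 points. Genes outside the list were named where called with such a change (at most 14) or where they act in the same reaction as a member described. Other genes with values, among them Hk2, Idh2, Ldha and genes of the neighbouring pathways with smaller changes, were chosen after their values were seen. The members and lists were chosen with earlier results of these data known.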

Additional observations from a re-analysis of the deposited data

How the results depend on the processing

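Of 24 changes of single members, 13 kept their call under each alternative in which the member was tested, 11 lost it under at least 1, and none reversed; members under 5 RPKM, such as Pfkl, Pfkp and Idh3b, were not tested with the filter of 5 RPKM. From 10–30 to 60–65 μm the members called ranged over 3–6 higher and 8–13 lower when single libraries were left out (5 and 12 in the full fit), the lowest counts being without 10–30 μm A (3 higher), 60–65 μm A (3 higher) and 60–65 μm B (3 higher, 8 lower). Over 10–30 to 40–45 μm the ranges were 1–3 higher and 1–6 lower, over 40–45 to 50–55 μm 0–1 and 0–1, and over 50–55 to 60–65 μm 0. Without a 60–65 μm library Pfkp fell under the filter and was not tested. Calls lost without a single library were those of Pfkm, Aldoa, Eno1, Cs, Suclg1, Mdh1 and Mdh2 to 60–65 μm, Pgk1 (log2 -0.315 without 10–30 μm A), Idh3b and Idh3g (-0.37 without 40–45 μm A) to 40–45 μm, and Pfkp to 50–55 μm. Mdh1 stayed called without 10–30 μm A, at -0.37.

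A filter of 5 RPKM, which tests fewer genes, left 2 members higher to 60–65 μm (35.7% of all tested genes). It left 0 higher to 40–45 μm (17.4%) and 0 higher to 50–55 μm (3.71%). No filter beyond a value above 0 in 2 libraries gave 2 higher from 40–45 to 50–55 μm (2.61% of all tested genes). A fit of only the size classes compared gave 2 lower from 10–30 to 40–45 μm (3.93%). The deviations of libraries with the same letter correlated at 0.589–0.67 among the 10–30, 40–45 and 50–55 μm classes. They correlated at -0.227, -0.026 and 0.113 with 60–65 μm, and the fit was run without pairing by letter. A replicate block on the letters gave 5 higher and 6 lower from 10–30 to 40–45 μm (2 and 4 without it). Of all tested genes it called 17.7% higher and 13.9% lower there (13.2% and 9.80% without it). From 40–45 to 50–55 μm it gave 1 lower (7.75% of all tested genes). From 10–30 to 60–65 μm it gave 5 higher and 13 lower (34.9% and 34.5%). With a pseudocount of 1 the log2 changes of Idh3b and Suclg1 were -0.65 and -0.41.

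The ratio of glycolysis to pyruvate use in the 4 size classes in order was 0.4105, 0.4335, 0.423 and 0.413 without the highest member of each side, 0.970, 1.05, 1.02 and 1.02 without the cytosolic Aco1, Idh1 and Mdh1, and 1.10, 1.22, 1.19 and 1.15 with copy genes, a setting chosen after seeing the data. As a difference of medians of log2(RPKM + 0.1), glycolysis minus pyruvate use, it was -2.18, -1.84, -1.78 and -1.69. Over single libraries the ratios were 0.805–0.875, 0.885–0.925, 0.8745–0.888 and 0.876–0.8825, and the Pfkm shares 59.0–59.8% and 43.35–44.2%. With 1 RPKM added, the Pfkm shares were 47.5% and 40.3%. The median gene-body methylation of the members was 31.3% from positions with at least 1 read, 18.25% with at least 10 reads and 51.6% without the first 2 kb, and the median at gene starts in PBAT was 1.51% with at least 10 reads. The window before RefSeq starts was also chosen after seeing the data. The causes were not tested.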
